A study of Rattus norvegicus with 9 samples.

Results

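The potassium channel subunits measured here were the probes for rat genes whose name begins with Kcn, the prefix that gene nomenclature gives to potassium channel pore subunits and their accessory subunits. The arrays carried 146 such probes for 94 genes, out of 45598 probes for 34912 gene names in all. Of these, 121 probes for 82 genes were well above background on 4 or more of 9 arrays and were compared between groups. Each array held RNA of both amygdalae of a single female rat (n = 1 rat per array). The rats were of the SHR strain, an inbred line that becomes hypertensive. The OV+E2 group was 5 rats that received estradiol in polyethylene glycol (PEG) from a subcutaneous minipump at 2 µg a day for 4 weeks. The OV group was 4 rats whose pump held PEG alone. Every rat of either group had been ovariectomised at 4 weeks of age and left 1 week to recover, and all were 9 weeks old when tissue was taken, 5 weeks after ovariectomy. As a model the design replaces 1 ovarian hormone at 1 dose in 1 strain, and no rats with ovaries and no rats of normal blood pressure were analysed here.

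Potassium channels let potassium ions leave the cell and so set the resting potential, end the action potential and limit repetitive firing. The voltage-gated classes (the Kcna, Kcnb, Kcnc, Kcnd, Kcnq and Kcnh genes) open on depolarisation, the Kcnma and Kcnn channels open when calcium enters, and the inward rectifiers (Kcnj) and tandem-pore channels (Kcnk) act near rest. Accessory subunits (Kcnab, Kcne, Kcnip, Kcnmb) change the gating or the traffic of a pore subunit. In the amygdala these currents govern the firing of projection neurons and interneurons, and oestrogens are known to modify several of them in neurons of other brain regions.

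Each value below comes from a 60-base probe, and for several genes the probes of 1 gene gave different answers, so the probes on which a result turns are shown first. All coordinates are those of rat build rn4 in the file headers, with the strand taken from the order of the coordinates, and each sequence is written 5′ to 3′ as the scanner files give it. The placement of the probes in coding or untranslated sequence was not analysed here, and for probes mapped as 1 block the first 30 bases are printed. The 2 probes of Kcnip3, which encodes a calcium-binding protein that attaches to Kcnd channels, lie at chr3:114961933-114962584 and chr3:114961951-114962602 on the minus strand and are printed whole because each maps over a longer stretch of the genome. They share the 42 bases in capitals and therefore read nearly the same stretch of transcript.
Kcnip3 probe A_44_P231583: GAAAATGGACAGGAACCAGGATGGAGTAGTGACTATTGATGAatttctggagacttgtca
Kcnip3 probe A_44_P1083512: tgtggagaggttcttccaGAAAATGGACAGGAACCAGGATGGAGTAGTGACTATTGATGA

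Probes of the same gene that lie apart are shown for 4 genes, with no letters in capitals. Kcnma1, the pore subunit of the large-conductance calcium-activated channel, has probes at chr15:950227-950286 and chr15:904814-904873 on the plus strand, separated by 45353 bases.
Kcnma1 probe A_64_P105078: ctgtcaaggaaatgacttttcttcaaattt
Kcnma1 probe A_44_P1151707: aatgttcagtttttggaccaagacgatgat
Kcnd3, a pore subunit of the transient A-type current, has probes at chr2:200926381-200926440, chr2:200921626-200921685 and chr2:200920709-200920768 on the plus strand.
Kcnd3 probe A_42_P759894: aatacattgtataaaactgcaggaagacaa
Kcnd3 probe A_64_P028390: tttgaaagcagacgacggactgagaccaaa
Kcnd3 probe A_44_P1157105: tattgatgagcagatgtttgagcagaactg
Kcnj6, which encodes the G protein-gated subunit GIRK2, has probes at chr11:35025584-35025643 and chr11:35041041-35041100 on the minus strand.
Kcnj6 probe A_44_P182270: agtggaaaagtagaatttcagtaagagttg
Kcnj6 probe A_44_P1151774: agaactgacagagaggaatggtgatgtggc
Kcnk7, a tandem-pore gene, has probes at chr1:208330417-208330476 and chr1:208330191-208330250 on the plus strand.
Kcnk7 probe A_64_P011229: gaatgaagatgtcatgggatgatgccaatg
Kcnk7 probe A_64_P051229: tagacccgatgaagaccgagatggcatcct

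Array OV replicate 3 stood apart from the other 8. The 75th percentile of its signal was 129.7, against 556.8 to 737.6 on the other arrays, and 24225 of its probes were well above background, against 29052 to 31395. Its mean correlation with the other arrays was 0.932, against 0.981 to 0.984. The authors' own value column for this rat also differed from its scanner file, with an SD of the log2 ratio of 1, against 0.00417 to 0.0307 for the other rats. Where leaving it out moved a difference printed below by over 1.5 times, the value without it is given too. The arrays sat on 2 slides, slide 1 with OV+E2 replicates 1 and 2 and OV replicates 1, 2 and 3, and slide 2 with OV+E2 replicates 3, 4 and 5 and OV replicate 5. Of 13 marker genes listed for the amygdala 11 could be tested, and their mean log2 signal lay between 1.02 and 1.13 in OV+E2 rats and between 0.89 and 1.05 in OV rats. Rspo2 was well above background on 3 arrays, and Tac2 was not found on the array under that name. Prkcd, which marks the central amygdala and also the thalamus, had a log2 signal of 2.42 and 3.59 in OV+E2 replicates 1 and 2 and 0.83 to 1.13 on every other array, and the mean of 5 thalamus markers was highest in the same 2 rats, at 0.74 and 1.40.

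Detection of the family in the amygdala was broad. Of the Kcn probes 82.9% were well above background on 4 or more arrays, against 66.3% of all probes, and 72.6% were so on all 9 arrays, against 51.4%. For 12 genes no probe reached this level on 4 arrays. Among the accessory subunits these were Kcnmb1, the BK subunit of smooth muscle, with Kcnmb3, Kcne1 and Kcne3, and among the inward rectifiers they were Kcnj1, the channel of the kidney tubule, and Kcnj15. The tandem-pore genes Kcnk15 and Kcnk18, the voltage-gated genes Kcna10, Kcnh5 and Kcnh8, and Kcnu1, a channel of sperm, completed the set. Signals of different probes are not compared with each other below, since they do not rank transcript levels.

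No Kcn probe differed between the groups after adjustment. In limma 0 of 121 Kcn probes had an adjusted p under 0.05 (adjusted over all 30215 tested probes), and the share over all tested probes was 0%. The smallest adjusted p of the family was 0.313, for Kcnk7. At an unadjusted p under 0.05 there were 4 Kcn probes higher in OV+E2 rats (3.31%, against 3.21% of all tested probes) and 5 lower (4.13%, against 7.17%). The median log2 difference, OV+E2 minus OV, was 0.01 over Kcn probes and 0.00 over all tested probes, with 61 Kcn probes above 0 (50.4%, against 50.2% of all tested probes) and 60 below. Without OV replicate 3 these medians were 0.04 and 0.01. The median size of the difference was 0.21 for Kcn probes and 0.20 for all tested probes, and without that array these became 0.13 and 0.11. The share of Kcn probes that were higher and the sizes of the differences lay near those of the array. The share that were lower was smaller, but it rests on 5 probes, and the gap was not tested.

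The counts at an unadjusted p under 0.05 differed between settings. Without that array 0 Kcn probes were called (0.00331% of all tested probes), 5 were higher at an unadjusted p under 0.05 (4.13%, against 5.86%) and 4 lower (3.31%, against 8.26%), and 73 differences were above 0 (60.3%, against 52.4%). The authors' processed values gave 0 called (0.23% of all), 9 higher (7.44%, against 8.47%) and 8 lower (6.61%, against 10.4%). With slide as a block 1 was higher (0.826%, against 2.04%) and 5 lower (4.13%, against 5.59%). Array weights, which give less weight to arrays of larger spread, gave 22 higher (18.2%, against 11.2%) and 11 lower (9.09%, against 14.1%). With array weights and without OV replicate 3, 0 Kcn probes were called (0.0132% of all), 16 were higher (13.2%, against 9.15%) and 7 lower (5.79%, against 12%).

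Precision varied between members. For 55 of the 121 Kcn probes (45.5%, against 46.5% of all tested probes) the 95% confidence interval of the difference lay within 1.5-fold either way. For 88 (72.7%, against 75.5%) it lay within 2-fold. Without OV replicate 3 the same counts were 90 (74.4%, against 72.6%) and 109 (90.1%, against 90.1%). A difference of over 1.5-fold (0.58 on the log2 scale) was estimated for 11 Kcn probes (9.09%, against 11.1%), and without OV replicate 3 for 4 (3.31%, against 5.28%).

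**Figure D1:**
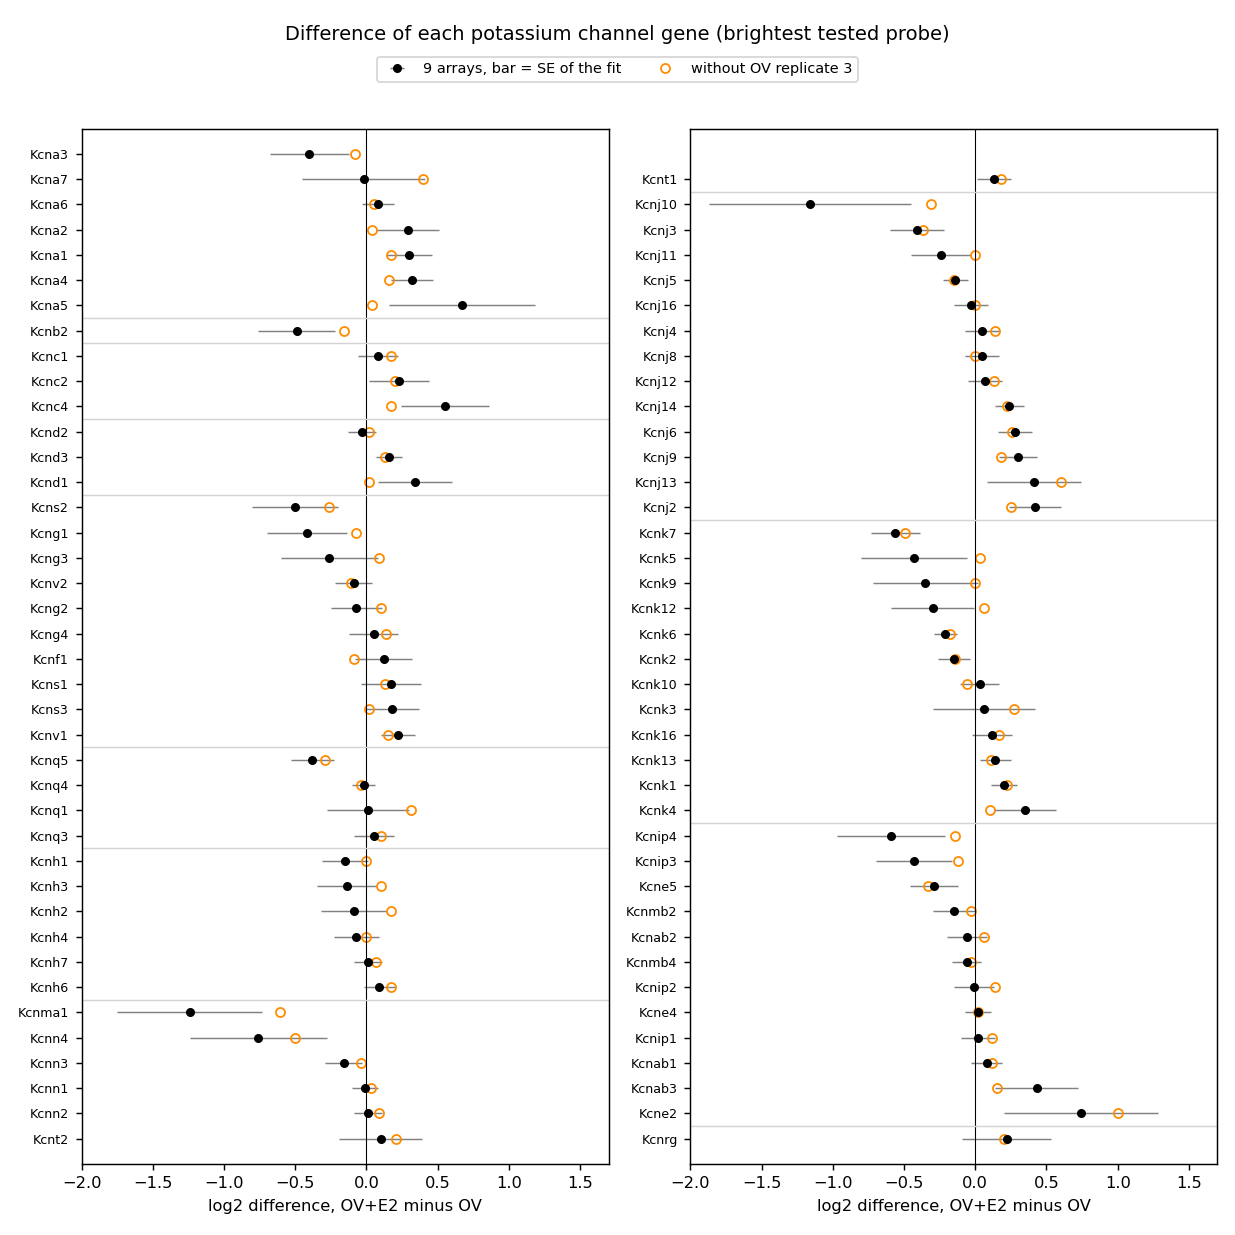
Log2 difference in signal, OV+E2 minus OV, on the horizontal axis for the brightest tested probe of 79 genes, grouped by channel class with grey lines between classes. Black points with bars are the difference and its SE over 9 arrays and open orange circles the difference without OV replicate 3, so that genes such as Kcnj10 (−1.16, and −0.31 without that array) and Kcnma1 (−1.24 and −0.61) show how far 1 array moves a value.

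The 8 genes whose brightest probe had an unadjusted p under 0.05 came from the tandem-pore channels, the inward rectifiers, the Kcnq class and the calcium-activated channels. Their values by rat follow in that order, as log2 signal relative to the 75th percentile of the array, and none of them was called.

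Kcnk7 belongs to the TWIK group of tandem-pore channels and has not been shown to carry a current of its own in expression systems. Its brighter probe had a log2 signal of −4.29, −3.81, −3.86, −3.45 and −3.81 in OV+E2 replicates 1 to 5, against −3.54, −3.22, −3.09 and −3.29 in OV replicates 1, 2, 3 and 5. All OV+E2 rats except replicate 4 lay below every OV rat. The difference was −0.56 (SE 0.17, n = 5 and 4, limma adjusted p = 0.313), and it was −0.49 without OV replicate 3, −0.76 within slide 1 and −0.41 within slide 2. The second probe, dimmer and well above background on 3 arrays of each group, had a difference of −0.55 (SE 0.28) and of −0.80 without OV replicate 3. Without that array its OV+E2 and OV rats did not overlap. Probes of Kcnk7 were thus lower in OV+E2 rats at both positions shown above, without passing the test.

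Kcnk6 encodes TWIK-2, a weakly conducting tandem-pore channel that is also found in vascular smooth muscle. The brighter probe had a log2 signal of −1.24, −1.23, −1.25, −1.37 and −1.23 in OV+E2 replicates 1 to 5, against −1.07, −1.05, −0.97 and −1.12 in OV rats. The groups did not overlap, though the distance between them was small, at −0.21 (SE 0.08, 95% interval −0.39 to −0.03, adjusted p = 0.420). The second probe of Kcnk6 also had a difference of −0.21 (SE 0.20), or −0.09 without OV replicate 3, with overlapping groups.

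Kcnk1 encodes TWIK-1, which sets background potassium conductance in neurons and astrocytes. It had a log2 signal of 4.03, 4.09, 3.88, 4.07 and 4.03 in OV+E2 replicates 1 to 5, against 3.90, 3.83, 3.85 and 3.68 in OV rats. Only OV+E2 replicate 3 lay within the range of the OV rats. Both probes of the gene had a difference of 0.20 (SE 0.09 for the brighter, adjusted p = 0.474, and SE 0.13 for the other), and without OV replicate 3 they were at 0.22 and 0.11. The tandem-pore class as a whole, with Kcnk7, Kcnk6 and Kcnk1 included, was divided. By the brightest probes 6 of its 12 genes were higher in OV+E2 rats and 6 lower, with a median of −0.06 and no gene called. Without OV replicate 3, 7 were higher and 5 lower, with a median of 0.04. The brightest probes of Kcnk12 and Kcnk5 lost their lower position without that array, moving to 0.06 and 0.03 (−0.30 and −0.43 with all 9 arrays).

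**Figure D2:**
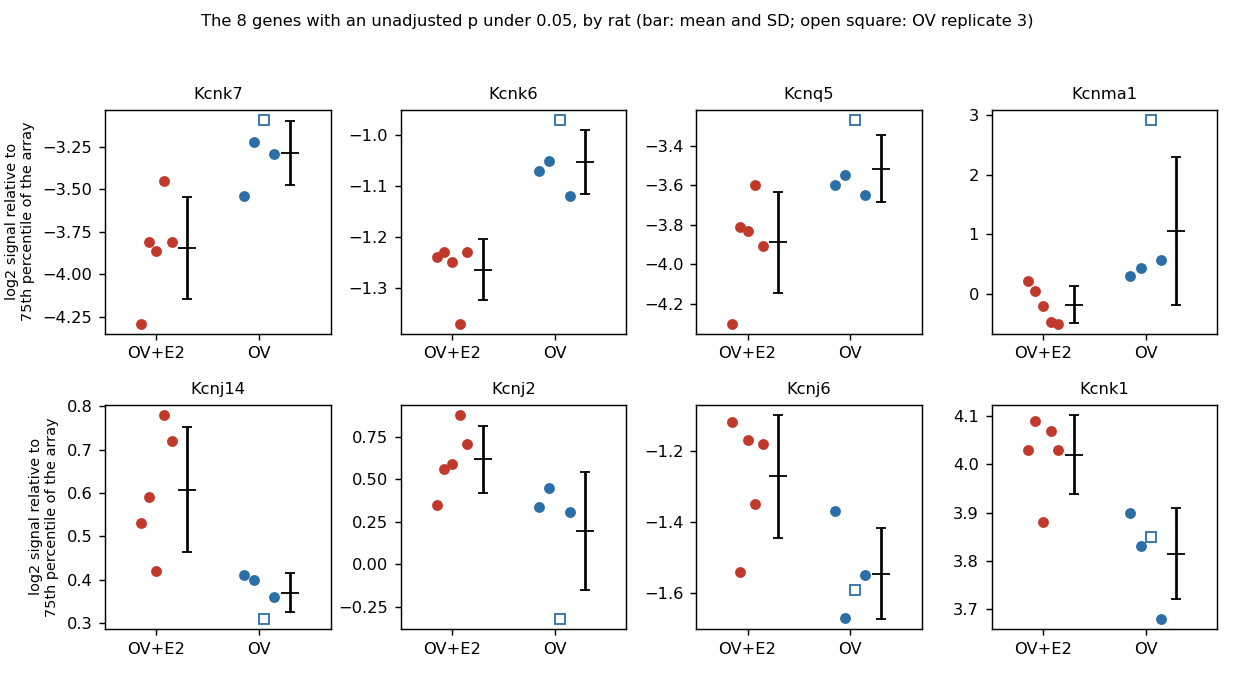
Log2 signal relative to the 75th percentile of the array (vertical axis) in each rat for the 8 genes with an unadjusted p under 0.05, OV+E2 on the left in red and OV on the right in blue, with the mean and SD as a bar beside each group. The open square is OV replicate 3, which is the highest OV value for Kcnk7, Kcnk6, Kcnq5 and Kcnma1 and the lowest for Kcnj14 and Kcnj2.

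Inward rectifiers held 3 of the 4 genes that were higher in OV+E2 rats at an unadjusted p under 0.05. Kcnj6 is the GIRK2 subunit that joins other GIRK subunits to carry the current opened by inhibitory G protein-coupled receptors. Its brighter probe had a log2 signal of −1.12, −1.54, −1.17, −1.35 and −1.18 in OV+E2 replicates 1 to 5, against −1.37, −1.67, −1.59 and −1.55 in OV rats. OV+E2 replicate 2 lay inside the OV range and the others above it. The difference was 0.28 (SE 0.12, adjusted p = 0.463), 0.26 without OV replicate 3, 0.22 within slide 1 and 0.32 within slide 2.

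The second Kcnj6 probe, at the upstream position, had a log2 signal of −2.64, −2.65, −2.93, −2.64 and −2.71 in OV+E2 replicates 1 to 5, against −2.99, −3.18, −2.41 and −3.12 in OV replicates 1, 2, 3 and 5. OV replicate 3 was above every OV+E2 rat and the other 3 OV rats were below them all. The difference was 0.21 (SE 0.16, adjusted p = 0.547), and without OV replicate 3 it was 0.38 (SE 0.09, unadjusted p = 0.00274, adjusted p = 0.168). This was the smallest p of any Kcn probe without that array. With limma's array weights the second Kcnj6 probe was the 1 Kcn probe called, at 0.42 (adjusted p = 0.0404), among 4.3% of all tested probes called. With array weights and without OV replicate 3 its adjusted p was 0.0795. With slide as a block the second probe was at 0.27 (limma adjusted p = 0.722). With normexp background correction it turned sign, at −0.07, and the brighter probe was at 0.12.

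Kcnj3 and Kcnj9, 2 other GIRK subunits, did not share a direction by their brighter probes. Kcnj3, which encodes GIRK1, had a log2 signal of 2.06, 2.46, 1.98, 1.81 and 1.55 in OV+E2 replicates 1 to 5, against 2.32, 2.61, 2.51 and 2.09 in OV rats. The groups overlapped, and the difference was −0.41 (SE 0.19, adjusted p = 0.488), with a second probe at −0.03, or 0.06 without OV replicate 3. Kcnj9, which encodes GIRK3, had a difference of 0.30 (SE 0.13, adjusted p = 0.481) by its brighter probe and −0.40 (SE 0.23) by the other, which was highest on OV replicate 3. Without that array they were at 0.18 and −0.15.

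Kcnj14 encodes a classical inward rectifier. Its log2 signal was 0.53, 0.59, 0.42, 0.78 and 0.72 in OV+E2 replicates 1 to 5, against 0.41, 0.40, 0.31 and 0.36 in OV rats. The groups did not overlap, with OV+E2 replicate 3 just above the highest OV rat. The difference was 0.24 (SE 0.10, 95% interval 0.02 to 0.46, adjusted p = 0.455).

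Kcnj2, a strong inward rectifier that holds the resting potential in many excitable cells, had a log2 signal of 0.35, 0.56, 0.59, 0.88 and 0.71 in OV+E2 replicates 1 to 5, against 0.34, 0.45, −0.32 and 0.31 in OV replicates 1, 2, 3 and 5. OV replicate 3 was far below the rest, and OV+E2 replicate 1 lay within the OV range. The difference of 0.42 (SE 0.18, adjusted p = 0.455) became 0.25 without OV replicate 3. Of the 13 inward rectifier genes tested, 8 were higher in OV+E2 rats and 5 lower, with a median of 0.05. Without OV replicate 3 the counts were the same and the median was 0.13.

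The glial and metabolic members of the inward rectifiers gave no call. Kcnj10, the main potassium channel of astrocytes, was measured by 1 dim probe, above background on 3 OV+E2 arrays and 4 OV arrays. Its log2 signal was −5.20, −4.06, −5.38, −5.17 and −4.90 in OV+E2 replicates 1 to 5, against −5.07, −4.45, −1.25 and −4.36 in OV replicates 1, 2, 3 and 5. A single high value on OV replicate 3 set most of the difference of −1.16 (SE 0.71, adjusted p = 0.519), which was −0.31 without that array. The 6 astrocyte markers had a median difference of −0.05 with 1 of 6 higher, and the median was −0.08 without OV replicate 3. The ATP-sensitive channel subunits Kcnj11 and Kcnj8 were at −0.24 (SE 0.21) and 0.05 (SE 0.12), and without OV replicate 3 both were at 0.00. In bulk tissue fewer cells of a type and less RNA per cell cannot be told apart.

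Kcnma1 had the widest gap of any tested Kcn probe between the group means. The probe at the downstream position had a log2 signal of 0.21, 0.05, −0.20, −0.47 and −0.50 in OV+E2 replicates 1 to 5, against 0.30, 0.44, 2.92 and 0.57 in OV replicates 1, 2, 3 and 5. The groups did not overlap, and OV replicate 3 was far above the other OV rats. The difference was −1.24 (SE 0.51, adjusted p = 0.452) and became −0.61 (SE 0.17, adjusted p = 0.191) without OV replicate 3. In the authors' own processed values, whose column for that rat differs from the scanner file, it was −0.68 (adjusted p = 0.074).

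The other Kcnma1 probe, 45353 bases upstream, had a log2 signal of −1.09, −1.21, −1.13, −0.98 and −1.10 in OV+E2 replicates 1 to 5, against −1.07, −1.39, −1.29 and −1.29 in OV replicates 1, 2, 3 and 5. Here OV replicates 2, 3 and 5 lay below every OV+E2 rat and OV replicate 1 among them, and the difference was 0.16 (SE 0.10, adjusted p = 0.519). OV replicate 3 was not apart from the other OV rats at this position. The difference in the gene thus had opposite signs at the 2 positions, with and without OV replicate 3 (0.15 without it). Kcnmb4, the neuronal accessory subunit of the same channel, was at −0.06 (SE 0.10) and Kcnmb2 at −0.15 (SE 0.15), and both were at −0.03 without OV replicate 3.

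Small-conductance calcium-activated channels carry the afterhyperpolarisation that slows firing. Kcnn2 had 4 tested probes, all higher in OV+E2 rats, by 0.01 to 0.46, and without OV replicate 3 by 0.05 to 0.10. At one of them the groups did not overlap, with a log2 signal of −0.10, −0.09, −0.12, −0.15 and −0.11 in OV+E2 replicates 1 to 5, against −0.23, −0.17, −0.99 and −0.18 in OV replicates 1, 2, 3 and 5. Values of the OV+E2 rats were almost equal to each other, and the OV rats other than replicate 3 were only slightly lower. Kcnn3 was at −0.16 (SE 0.13), or −0.04 without OV replicate 3. Kcnn4, which is not one of the small-conductance channels, was at −0.76 (SE 0.48) with a wide spread in both groups. It was at −0.50 without OV replicate 3 and −0.42 without OV replicate 2. A dimmer Kcnn4 probe was well above background on 3 OV arrays and 0 OV+E2 arrays, and so was not tested.

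In the Kcnq class, whose members carry the M-current that holds neurons below threshold, Kcnq5 had an unadjusted p under 0.05. Its log2 signal was −4.30, −3.81, −3.83, −3.60 and −3.91 in OV+E2 replicates 1 to 5, against −3.60, −3.55, −3.27 and −3.65 in OV rats. OV+E2 replicate 4 equalled OV replicate 1 and the other OV+E2 rats lay below all OV rats. The difference was −0.38 (SE 0.15, adjusted p = 0.443), −0.58 within slide 1 and −0.13 within slide 2. Kcnq3, another M-current subunit, was at 0.05 (SE 0.14) by its brightest probe, or 0.10 without OV replicate 3.

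The Kcnc genes encode channels that let fast-spiking interneurons fire at high rates. By the brightest probe Kcnc1 was at 0.08 (SE 0.14), Kcnc2 at 0.23 (SE 0.21) and Kcnc4 at 0.55 (SE 0.31), and none of them had an unadjusted p under 0.05. Without OV replicate 3 the values were 0.17 for Kcnc1, 0.20 for Kcnc2 and 0.17 for Kcnc4. The dimmer probe of Kcnc2 ran the other way, at −0.28 (SE 0.14), or −0.17 without OV replicate 3. Without OV+E2 replicate 2 the brighter Kcnc2 probe was at 0.05. The mean log2 signal of 6 interneuron markers was highest in that rat, at 2.81, against 2.45 to 2.65 on the other arrays. The part of interneurons in the Kcnc2 values was not tested.

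Among the Kcna genes, which act in axons and terminals, Kcna4 had groups that did not overlap. The log2 signal was 0.10, 0.12, 0.38, 0.20 and 0.12 in OV+E2 replicates 1 to 5, against 0.08, −0.02, −0.61 and 0.00 in OV replicates 1, 2, 3 and 5. OV replicate 3 lay well below the others, and OV+E2 replicate 1 was just above OV replicate 1. The difference of 0.32 (SE 0.15, adjusted p = 0.498) became 0.16 without OV replicate 3. Kcna1 was at 0.30 (SE 0.16), 0.17 without OV replicate 3, 0.20 without OV+E2 replicate 2, 0.52 within slide 1 and 0.09 within slide 2. OV+E2 replicate 2, which had high thalamus markers, had its highest value, 3.85. The part of those cells in the result was not tested.

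In all, 3 Kcn probes had OV+E2 rats entirely above OV rats (2.48%, against 2.89% of all probes with complete values), from Kcnj14, Kcna4 and Kcnn2. A further 2 had them entirely below (1.65%, against 4.01%), from Kcnk6 and Kcnma1. Without OV replicate 3 the counts were 6 above (4.96%, against 5.02%) and 3 below (2.48%, against 5.42%). The probes that joined included those of Kcnj6 and Kcnip2 above and of Kcnk7 below. Shares of Kcn probes above OV were close to those of the whole array. Shares below were smaller, but they rest on 2 and 3 probes, and the gap was not tested.

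The remaining voltage-gated classes gave differences of both signs. Kcnb2, a delayed rectifier, was at −0.49 (SE 0.27), or −0.16 without OV replicate 3. Kcnd2, which carries the dendritic A-type current, was at −0.03 (SE 0.10) by the brightest of 3 probes, or 0.02 without OV replicate 3. Kcnd3 was at 0.16 (SE 0.09) by its brightest probe. Its dimmest probe, above background on 3 arrays of each group, was at −0.65 (SE 0.24, unadjusted p = 0.0263, adjusted p = 0.417), and its remaining probe was at −0.86 (SE 0.55), or −0.17 without OV replicate 3. Silent subunits, which modify other channels, were divided 5 higher and 5 lower, or 6 and 4 without OV replicate 3. Among them Kcnv1 was at 0.22 (SE 0.12), and Kcns2 was at −0.50 (SE 0.30), or −0.26 without OV replicate 3. Of the 6 Kcnh genes 2 were higher and 4 lower, a split that was 5 and 1 without OV replicate 3.

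**Figure D3:**
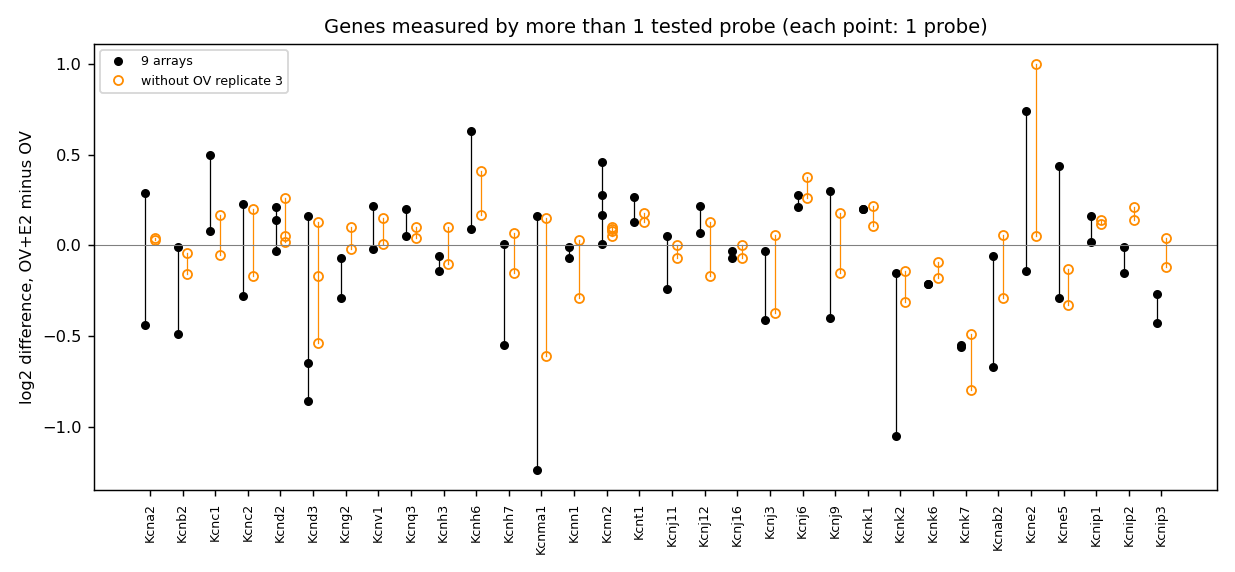
Log2 difference, OV+E2 minus OV, on the vertical axis for every tested probe of 32 genes that had more than 1, joined by a line per gene. Black points are from 9 arrays and open orange circles without OV replicate 3, and the spread between probes of a gene, over all 34 such genes, had a median of 0.34 with all arrays and 0.20 without that array.

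Agreement between probes of 1 gene was limited. Of the 34 genes with more than 1 tested probe 9 had all probes higher in OV+E2 rats, 12 had all lower and 13 had probes of both signs. Without OV replicate 3 the counts were 12, 6 and 16, and the median range between probes of a gene was 0.20, against 0.34 with all arrays. Genes with both signs included Kcna2, Kcnc2, Kcnd2, Kcnd3, Kcnv1, Kcnh7, Kcnma1, Kcnj11, Kcnj9, Kcne2 and Kcne5.

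Kcna2 had probes of opposite sign only with OV replicate 3 included. Its brighter probe was at 1.51, 1.59, 1.15, 1.29 and 1.32 in OV+E2 replicates 1 to 5, against 1.27, 1.39, 0.35 and 1.31 in OV replicates 1, 2, 3 and 5. Its dimmer probe was at −0.25, −0.09, −0.65, −0.50 and −0.57 in OV+E2 replicates 1 to 5, against −0.64, −0.20, 1.45 and −0.49 in OV replicates 1, 2, 3 and 5. On OV replicate 3 the brighter probe was the lowest and the dimmer the highest of all rats, while on the other arrays the groups overlapped. The differences of 0.29 and −0.44 became 0.04 and 0.03 without it.

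Probes of other genes also moved apart on OV replicate 3, in either direction. In Kcnb2, unlike Kcna2, the brighter probe was the one that was relatively high there. There were 39 comparisons between the brightest probe of a gene and another of its probes. Of these, 19 were shifted by over 1 (2-fold) either way on that array relative to the median of the others. On each of the other 8 arrays 0 were. The SD of the deviations of the Kcn probes was 1.01 on OV replicate 3, against 0.21 to 0.38 elsewhere, and 38 Kcn probes deviated by over 1, against 1 to 4. Over all tested probes the SD on that array was 1.00. In 45 pairs of probes of 34 genes the upstream probe was relatively higher on OV replicate 3 in 24 and lower in 21, with a median shift of 0.19. Both Kcnip3 probes, which share the bases in capitals above, were high on this array, with a log2 signal of 0.21 and 0.11 on OV replicate 3, against −1.26 to −0.73 and −1.34 to −0.81 on the other OV arrays. Deviations on that array were almost unrelated to the base composition of the probe, with a correlation with percent G and C of −0.05 over 121 probes, given as a description since the probes share 1 library.

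**Figure D4:**
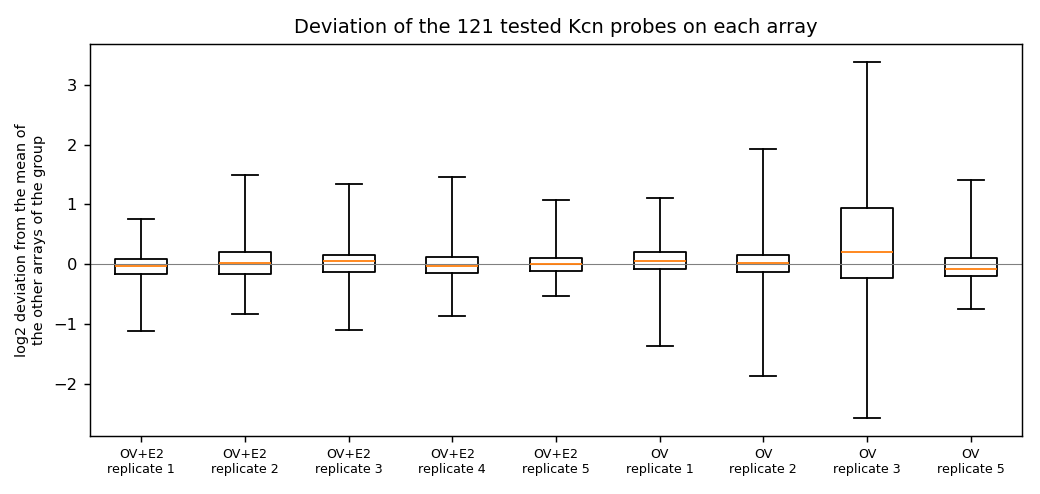
Deviation of the 121 tested Kcn probes on each array (vertical axis, log2) from the mean of the other arrays of its group, with OV replicate 3 left out of the mean for the other OV arrays. Boxes span the quartiles with the median as a line and whiskers the full range, and the box of OV replicate 3 is the widest, with an SD of 1.01 against 0.21 to 0.38.

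Accessory subunits had no probe at an unadjusted p under 0.05. By the brightest probe 5 of 12 genes were higher in OV+E2 rats and 7 lower, with a median of −0.03. Without OV replicate 3, 7 were higher and 5 lower, with a median of 0.04. Kcnip4 and Kcnip3, which bind Kcnd channels, were at −0.59 (SE 0.38) and −0.43 (SE 0.27), and at −0.14 and −0.12 without OV replicate 3. Kcnab3, which binds Kcna channels, was at 0.43 (SE 0.29), or 0.15 without that array and 0.27 without OV+E2 replicate 2. Kcne5 was at −0.29 (SE 0.17) by its brighter probe and 0.44 (SE 0.46) by the other, and without OV replicate 3 both were below 0, at −0.33 and −0.13.

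The differences of Kcnj13 and of the brighter Kcne2 probe were smaller without OV replicate 2. Kcne2 and Kcnj13 are both known as genes of the choroid plexus, the epithelium that makes cerebrospinal fluid and that lies beside the amygdala in the lateral ventricle. Kcne2 had a log2 signal of 0.03, 1.40, −0.66, −0.26 and 0.55 in OV+E2 replicates 1 to 5, against −0.05, −2.03, 0.24 and −0.29 in OV replicates 1, 2, 3 and 5. OV replicate 2 was far below all other rats and OV+E2 replicate 2 the highest, with the rest overlapping. The difference was 0.74 (SE 0.54, adjusted p = 0.533), and it was 0.24 without OV replicate 2 and 1.00 without OV replicate 3. A dimmer probe was at −0.14, at −0.52 without OV replicate 2 and at 0.05 without OV replicate 3.

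Kcnj13 was at −0.18, 0.71, −0.49, −0.14 and 0.28 in OV+E2 replicates 1 to 5, against −0.19, −1.30, 0.21 and −0.21 in OV replicates 1, 2, 3 and 5. The same 2 rats were at the ends, and the difference was 0.41 (SE 0.33, adjusted p = 0.555), or 0.10 without OV replicate 2 and 0.60 without OV replicate 3. The mean log2 signal of 8 choroid plexus markers ran from −1.12 to 0.52 in OV+E2 rats and from −2.58 to 0.26 in OV rats, lowest in OV replicate 2. With all 9 arrays 8 of 8 markers were higher in OV+E2 rats, with a median difference of 0.66 (1.01 without OV replicate 3) and 0 called. Without OV replicate 2, 3 of 8 were higher and 5 lower, with a median of −0.16. Ttr, the most abundant choroid plexus transcript, was at 3.42 in OV replicate 2 and at 7.98 to 9.54 on the other arrays. The part of choroid plexus in the differences of Kcne2 and Kcnj13 was not tested.

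**Figure D5:**
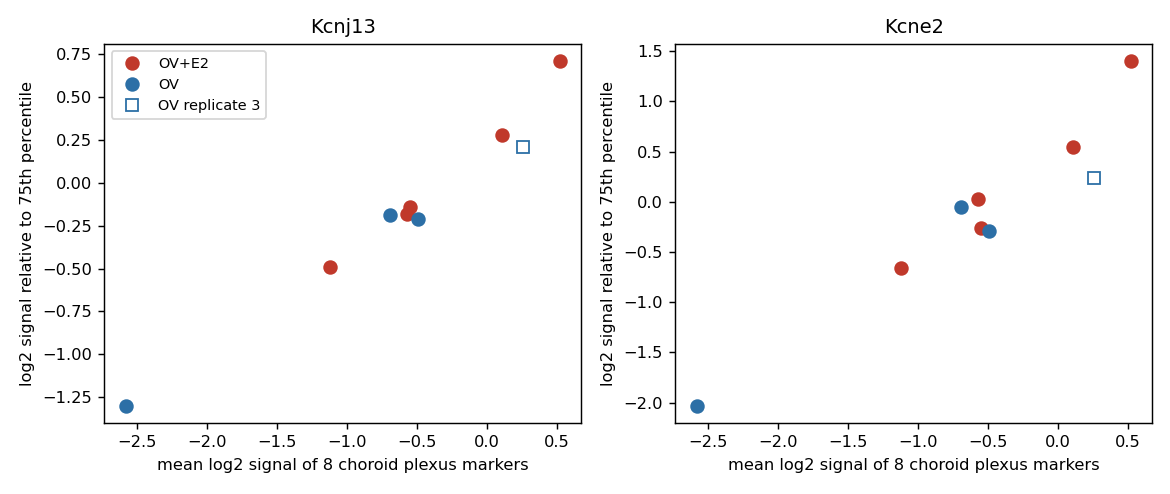
Log2 signal of Kcnj13 (left) and Kcne2 (right) relative to the 75th percentile of the array on the vertical axes against the mean log2 signal of 8 choroid plexus markers on the horizontal axes, 1 point per rat, OV+E2 in red and OV in blue with OV replicate 3 as an open square. OV replicate 2 lies at the lower left in both panels (−2.58 on the horizontal axis) and OV+E2 replicate 2 at the upper right (0.52).

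Genes that encode partners of potassium channels outside the Kcn names were also counted, from a list of 32 that held auxiliary proteins, anchoring proteins, regulators of G protein gating, HCN channels and sodium pump subunits. Of these, 31 were tested and 0 were called (0% of all tested probes), while Lrrc52 was above background on 0 arrays. At an unadjusted p under 0.05, 1 of 31 was higher and 1 of 31 lower, each gene counted by its brightest probe. The shares over all tested probes were 3.21% and 7.17%. The median difference was 0.10 (0.06 without OV replicate 3), against 0.00 (0.01) over all tested probes. Sgk1, a kinase that raises the number of several ion channels at the cell surface and responds to corticosteroids, had a log2 signal of 1.51, 1.60, 1.28, 1.32 and 1.03 in OV+E2 replicates 1 to 5, against 0.61, 0.76, −0.32 and 0.71 in OV replicates 1, 2, 3 and 5. The groups did not overlap, and OV replicate 3 was the lowest. The difference was 0.91 (SE 0.23, adjusted p = 0.265), or 0.65 without OV replicate 3.

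The gene lower at an unadjusted p under 0.05 was Lrrc38, an accessory subunit of the Kcnma1 channel, at −0.22 (SE 0.09, adjusted p = 0.471). Next by p were Abcc9, the regulatory subunit that pairs with Kcnj8, at 0.30 (SE 0.16), and Rgs7, which speeds the closing of GIRK channels, at 0.46 (SE 0.25), with 0.15 and 0.16 without OV replicate 3. The mean log2 signal of the 4 neuron markers was lower on OV replicate 3, at 3.72, against 4.60 to 4.94 on the other arrays. Snap25, Syt1 and Stmn2 were lowest there, while Rbfox3 had its highest OV value there, 5.87. In OV+E2 rats 4 of 4 were higher (median 0.37, or 0.16 without OV replicate 3). Without that array Snap25 was at −0.01. The 6 oligodendrocyte markers ran from 5.42 to 5.90 in OV+E2 rats and from 5.67 to 6.37 in OV rats, highest on OV replicate 3, with 6 of 6 lower in OV+E2 rats (median −0.27, or −0.19 without OV replicate 3). Microglia markers were lower in 4 of 6 cases (median −0.32) and endothelium markers in 3 of 5 (median −0.37), and without OV replicate 3 the medians were −0.27 and −0.18. Hypothalamus markers were lower in 6 of 7 cases (median −0.21, or −0.34 without OV replicate 3). Lower at an unadjusted p under 0.05 were 3 of 7 hypothalamus, 3 of 6 microglia, 2 of 5 endothelium and 1 of 6 oligodendrocyte markers. So were 1 of 3 oligodendrocyte precursor and 1 of 6 pericyte and smooth muscle markers. Higher were 1 of 4 cerebral cortex, 1 of 6 interneuron and 1 of 5 thalamus markers. The shares over all tested probes were 7.17% lower and 3.21% higher, and 0 of these markers were called (0% of all tested probes). The mean of 6 striatum markers was lowest in OV+E2 replicate 1, at 1.69, against 2.31 to 3.09 on the other arrays. The part of these cells in the values of the channels was not tested.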

How the data were processed

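Amygdala RNA of 9 rats was hybridised to 1-colour Cy3 rat arrays, 200 ng per rat. The scanner files deposited by the authors hold, for every spot, a background-subtracted and detrended intensity. Per the file headers these were made with Feature Extraction 10.7.3.1 (protocol GE1_107_Sep09), while the submitters' processing notes name Agilent Feature Extraction 9.1. The authors also deposited a value sheet of intensity on a linear scale, whose scaling is not stated in any source used here.

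Control spots (4259 of 62976) and outlier-flagged spots were left out and spots of a probe averaged. Log2 signal minus the 75th percentile of its array was compared by limma 3.58.1 in R 4.3.3 (lmFit and eBayes, group only, files read with version 1.17.8 of data.table). P values were adjusted by Benjamini-Hochberg over 30215 probes well above background on 4 or more of 9 arrays. The brightest tested probe represented a gene. Errors are SEs of the fit. The number of arrays limits the precision.

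Alternatives were median scaling, quantile normalization, normexp with an offset of 50, other filters, slide or replicate number as a block, array weights, the authors' values and leaving out each array. Replicate numbers were not treated as pairs. The members and lists were chosen with earlier results of these data known. Named genes were the 10 of smallest p in each direction, the smallest p of each class, a panel of 15 known from oestrogen, blood pressure or amygdala work, genes with probes of both signs, genes with no probe passing, genes with 1 array apart, and the 4 channel partners of smallest p. Kcnc1, Kcnip2, Kcnip3, Kcnj13, Kcnmb2, Kcna3, Kcna7 and Lrrc52 were named after their values were seen. Some members that this rule names are not reported here.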

Additional observations from a re-analysis of the deposited data

Results flagged for a closer look

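Among the brightest probes of 82 genes, 1 rat stood apart from its group by Dixon's ratio (the gap of the extreme value to its neighbour over the range of the group) in 7 genes among OV+E2 rats (8.54%) and in 13 among OV rats (15.9%). Chance flags about 1 in 20 groups. In 12 of the 13 the rat was OV replicate 3, the array with the low signal described above. The share flagged over all tested genes was not computed, so these shares cannot be read as particular to the Kcn genes. Deviations on that array had an SD of 1.01 over Kcn probes and 1.00 over all tested probes.

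OV replicate 3 was the lowest OV rat for Kcna1 (ratio 0.842), Kcna2 (0.886), Kcna4 (0.862) and Kcna5 (0.901) and for Kcnab3 (0.901) and Kcnc4 (0.874). It was not low throughout the Kcna class, being the highest OV rat for Kcna3, at a log2 signal of −2.33, Kcna7, at −1.89, and the dimmer Kcna2 probe, at 1.45. It was the highest OV rat for, among others, Kcnh2 (0.848), Kcnip4 (0.855), Kcnk12 (0.831), Kcnk5 (0.903) and Kcnma1 (0.899). OV replicate 1 was the lowest OV rat for Kcnk16 (0.849).

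OV+E2 replicate 2 was the highest of its group for the inward rectifiers Kcnj11 (0.749), Kcnj12 (0.779) and Kcnj8 (0.721). The same rat had the highest mean of the thalamus markers, 1.40, against 0.27 to 0.74 in the other OV+E2 rats, and the part of other regions in these values was not tested. OV+E2 replicate 4 was the lowest for Kcnk6 (0.862) and the highest for Kcnrg (0.761). OV+E2 replicate 1 was the lowest for Kcnn4 (0.744), and OV+E2 replicate 3 the highest for Kcnt2 (0.827), at a log2 signal of −1.02 against −2.52 to −2.26 in the other OV+E2 rats.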

How the results depend on the processing

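The count of Kcn probes called in limma was 0 in every setting except array weights, where it was 1 (Kcnj6), and it was 0 again with array weights and without OV replicate 3, an alternative chosen after seeing the data. Over all tested probes the count was 0 and became 1300 with array weights, 4 with array weights and without OV replicate 3, 69 with the authors' processed values, 1 with the authors' values and without OV replicate 3 (also chosen after seeing the data), and 9 with no filter on dim probes. Leaving out each array in turn gave 0 to 1, the 1 coming without OV replicate 1 and without OV replicate 3. Kcn probes at an unadjusted p under 0.05 were 9, and became 33 with array weights, 23 with weights and without OV replicate 3, 17 with the authors' values, and 3 to 17 with each array left out. The highest of these was without OV replicate 1 (14%, against 17.6% of all tested probes), and without OV replicate 2 there were 5 (4.13%, against 9.5%), without OV+E2 replicate 4 there were 3 (2.48%, against 7.19%) and without OV+E2 replicate 5 there were 3 (2.48%, against 6.69%). The cause of these changes was not tested. With the replicate block 0 Kcn probes were called, 6 had an unadjusted p under 0.05 (2 higher, 4 lower, 4.96% against 6.51% of all tested probes) and the median difference was 0.01. The same-numbered rats deviated together at correlations of 0.17, −0.0761, −0.011 and 0.105, against up to 0.122 for other numbers. Only replicate 1 was above that value, and so few correlations cannot show whether the numbers pair the rats. The median of all probes moved to 0.11 with median scaling, −0.11 with normexp and −0.13 with no filter, and that of the Kcn probes to 0.11, −0.09 and −0.05. With slide as a block 1 Kcn probe was higher (0.826%, against 2.04% of all) and 5 lower (4.13%, against 5.59%) at an unadjusted p under 0.05. Of 46 named genes 8 turned direction without OV replicate 3, 8 with normexp, 3 with slide as a block and 13 within slide 2, which holds 1 OV rat. Dim probes such as those of Kcnj10, Kcnk3, Kcnk9 and Kcnrg were well above background on some arrays only, which limits their differences.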
